A study of Mus musculus with 11 samples.

Results

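The genes described here are those whose response to knockdown of MERRICAL, a long noncoding RNA of mouse macrophages, depended on whether the macrophages were in the M0 or the M1 state. For every gene the log2 change with knockdown in M0 was subtracted from the log2 change with knockdown in M1, and this difference of knockdown effects was tested across all genes. A positive difference means that the gene moved further up, or less far down, with knockdown in M1 than in M0. All 11 libraries of the series entered the test, and 15024 of 42375 named genes had enough counts to be tested.

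Total RNA was sequenced from bone marrow derived macrophages (BMDM) of C57BL/6 mice, and every group was given its oligonucleotide for 16 h. The oligonucleotides were gapmers, antisense strands with a DNA centre through which RNase H cuts the paired RNA. M0 NS (libraries 1, 2 and 4) and M0 KD (1, 2 and 4) are macrophages in the M0 state with the NS gapmer or the MERRICAL gapmer. M1 NS (1, 2 and 4) and M1 KD (5 and 6) are the same cell type in the M1 state with the NS gapmer or the MERRICAL gapmer. The stimulus behind the M1 label, the number of animals and the meaning of the library numbers were not stated in the labels or files used here. The M1 KD libraries carry other numbers than the rest, so whatever those numbers stand for cannot be told apart from knockdown in M1. The labels do not say whether libraries of 1 group are separate cultures, and p-values therefore reflect variation among these libraries, part or all of which may be technical. The level of MERRICAL itself was not analysed here.

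Bone marrow derived macrophages are grown from marrow progenitors with macrophage colony-stimulating factor, and M0 denotes cells left without a further stimulus. M1 denotes the classically activated state, in which Toll-like receptor and interferon signalling drive cytokine and chemokine genes while part of the lysosomal and lipid handling programme of the resting cell is turned down. The chemokines Ccl3 and Ccl4, which attract monocytes and lymphocytes, lie next to each other on mouse chromosome 11, and were followed here whatever their result because the study of MERRICAL concerns them.

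Total counts per library ran from 30040632 to 43250392. The 26 macrophage identity genes summed to 41087 to 42135 CPM (the edgeR per-library scaled count, on TMM factors) in M0 NS and 32583 to 35227 in M0 KD. In M1 they summed to 26295 to 27852 CPM in M1 NS and 28437 to 31946 in M1 KD. This sum was thus lower with KD in M0 and higher with KD in M1, without overlap. The labelled activation was visible in Il12b, the shared p40 subunit of interleukins 12 and 23, which had 0.815, 0.882 and 0.69 CPM in M0 NS against 840.5, 768 and 438 in M1 NS. Comparing M1 NS with M0 NS, 8338 genes (55.5%) passed the test, 26.9% of genes tested higher and 28.6% lower in M1 NS.

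Knockdown of MERRICAL had a different effect in M1 than in M0 for 4095 of the 15024 genes tested, or 27.3%, at an adjusted p under 0.05 (edgeR's quasi-likelihood test, Benjamini-Hochberg adjustment over all genes tested, used for every adjusted p given here). The difference was positive for 1965 genes (13.1%) and negative for 2130 (14.2%). The immediate early factor Fosb, the lipase Mgll and the lipid-binding protein Fabp5 were among the strongest positive differences. The immediate early factor Egr1, the formyl peptide receptor Fpr1 and the cytokine subunit Il12b were among the strongest negative ones. Among called genes the median difference was 1.14 on the log2 scale for the positive and -1.18 for the negative ones, and the smallest called sizes were 0.43 and -0.42. Over all genes tested the median difference was -0.02.

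Most of the size of these differences lay in M1. Of the 4095 genes, 3880 (94.7%) had the larger of their 2 effects in M1, and for 3695 (90.2%) the M1 effect was itself called. The median effect of the genes with a positive difference was 0.95 in M1 and -0.21 in M0, and that of the genes with a negative difference was -1.02 in M1 and 0.16 in M0. The effects had opposite signs in 3186 genes (77.8%), though the M0 effect was under 0.25 in size in 2228 (54.4%) and at least 1 in size in 81. Calling genes by the difference itself favours effects of opposite sign and large effects. These shares therefore describe the called genes only, and the same shares over all genes tested are not given here. The difference was at least 1 in size for 2552 genes and at least 2 for 683, of which 319 were positive and 364 negative. Considered alone, the M1 effect was called for 5535 genes (36.8%) and the M0 effect for 0 genes (0%) with edgeR. In M0, 1947 genes had an unadjusted p under 0.05 and the lowest adjusted p was 0.190, while DESeq2 called 181 genes and limma-voom and limma-trend called 0 each. Both effects and their difference share libraries, so the M1 effect is given beside each difference as a part of it and not as separate support.

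**Figure D1:**
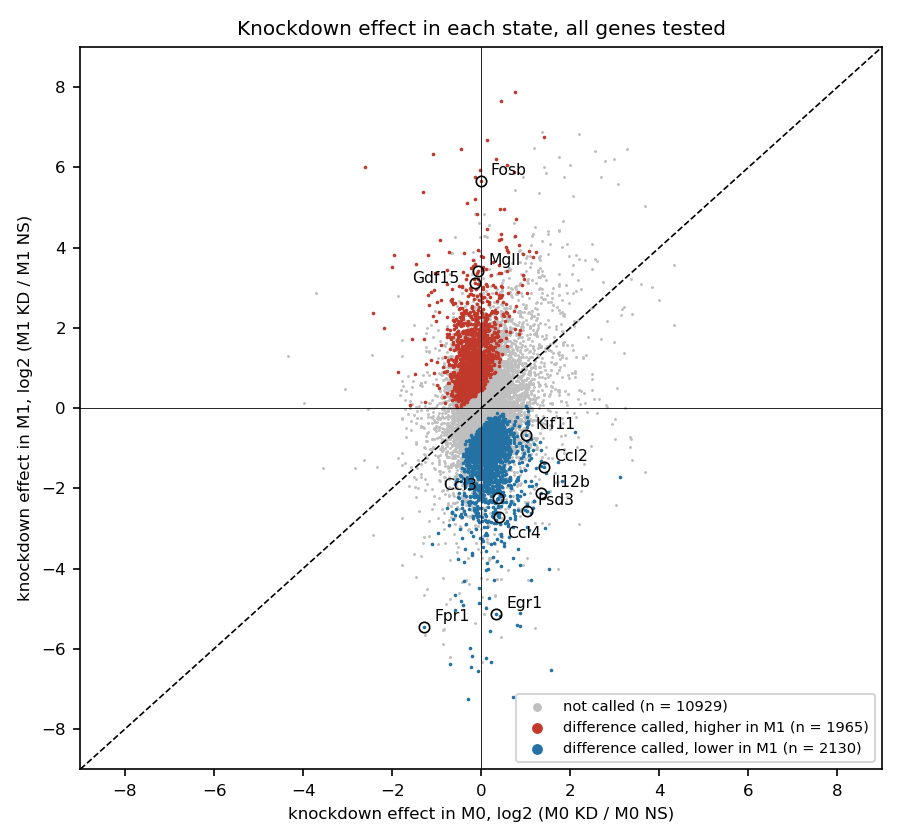
Knockdown effect in M0 (x axis) against knockdown effect in M1 (y axis), both as log2 ratios of KD to NS, for each of the 15024 genes tested; red and blue points are the 1965 and 2130 genes with a called positive or negative difference, grey points were not called, circles mark labelled genes, and the dashed line marks equal effects. Called points spread along the vertical axis, and among labelled genes Fosb lies highest and Fpr1 and Egr1 lowest.

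The split between directions moved with the scaling of the libraries. Positive differences made up 48.0% of called genes with TMM factors, 59.2% with upper-quartile factors and 38.5% with library size alone, and these last 2 settings shifted the median difference of all genes to 0.12 and -0.12. In bulk RNA, fewer cells of a type and less RNA per cell cannot be told apart.

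Among called genes with a mean level of at least 3 on the log2 CPM scale, the 8 largest negative differences belonged to genes that fell with knockdown in M1. Egr1 (chromosome 18, 34859823 to 34864984 on GRCm38), a zinc finger factor induced within minutes of growth factor or stress signals, had M0 NS values of 18.3, 19.2 and 16.6 CPM, M0 KD values of 21.7, 22.8 and 23.9, M1 NS values of 25.5, 20.9 and 14.2 and M1 KD values of 0.439 and 0.731. Its M1 KD values lay below those of every other library. The difference was -5.47 ± 0.36 (SE) with an edgeR adjusted p of 2.12e-05, made of -5.14 in M1 and 0.34 in M0. Fpr1 (chromosome 17, 17876471 to 17883940), a receptor for formylated bacterial peptides, had M0 NS values of 7.1, 7.4 and 5.35 CPM, M0 KD values of 2.55, 2.75 and 2.8, M1 NS values of 126, 122 and 254 and M1 KD values of 2.41 and 5.27. The M1 NS libraries were far above all others, while 1 M1 KD library lay within the range of the M0 libraries and the other just below it. Fpr1 was also lower in each M0 KD library than in each M0 NS library, with effects of -5.47 in M1 and -1.29 in M0 and a difference of -4.17 ± 0.49 (edgeR adjusted p = 0.000226).

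Il12b (chromosome 11, 44400063 to 44414033) had M0 NS values of 0.815, 0.882 and 0.69 CPM, M0 KD values of 1.88, 1.76 and 2.38, M1 NS values of 840.5, 768 and 438 and M1 KD values of 98.3 and 214. Its level fell in M1, where KD and NS libraries did not overlap, whereas the low M0 values were each higher with KD than with NS. The effects were -2.13 in M1 and 1.34 in M0, and the difference was -3.47 ± 0.49 (edgeR adjusted p = 0.000559). Jag1, a ligand of Notch receptors, had M0 NS values of 15.2, 10.98 and 17.99 CPM, M0 KD values of 23.03, 19.5 and 24.6, M1 NS values of 18.01, 18.8 and 76.7 and M1 KD values of 6.61 and 3.07. One M1 NS library stood above the other two of its group, and without M1 NS replicate 4 the difference changed from -3.56 to -2.47. Psd3, an exchange factor for the small GTPase Arf6, had M0 NS values of 23.3, 24.0 and 20.8 CPM, M0 KD values of 35.3, 36.4 and 67.7, M1 NS values of 23.7, 15.6 and 9.2 and M1 KD values of 2.47 and 2.96, with the highest value in M0 KD replicate 4 and a difference of -3.61 ± 0.51. The copper transporter Atp7a had M0 NS values of 56.6, 58.3 and 46.9 CPM, M0 KD values of 67.9, 71.7 and 65.2, M1 NS values of 78.2, 65.1 and 103 and M1 KD values of 14.02 and 8.23, and its M1 KD libraries were the lowest of all.

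The other 2 genes with the largest negative differences shared exonic sequence with neighbours, which limits their values because the strand setting of the counting was not stated in the labels or files used here. Rbm12, an RNA-binding protein, had a difference of -3.98 ± 0.43, and 32.6% of its exonic bases also belong to the read-through gene Gm28036. Kctd12, an auxiliary subunit of GABA-B receptors, had 329, 250.3 and 343 CPM in M1 NS and 20.7 and 48.1 in M1 KD with a difference of -3.30 ± 0.40. Of its exonic bases 62.8% also belong to the opposite-strand gene Gm26778.

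At the same minimum level, the 8 largest positive differences belonged to genes of several kinds. Frat2, a binding protein of the kinase GSK3, had M0 NS values of 16.1, 14.1 and 19.2 CPM, M0 KD values of 14.4, 14.9 and 8.12, M1 NS values of 0.504, 0.277 and 0.516 and M1 KD values of 5.02 and 4.39. The M1 NS libraries were the lowest of the 11, M1 KD lay above them and below M0, and the difference was 3.80 ± 0.40 (edgeR adjusted p = 0.000119). Mgll (chromosome 6, 88724412 to 88828360), the lipase that splits monoacylglycerols, had M0 NS values of 12.2, 9.54 and 7.23 CPM, M0 KD values of 7.87, 7.26 and 12.5, M1 NS values of 2.13, 3.4 and 3.3 and M1 KD values of 33.1 and 29.0. Its M1 KD values were higher than in every other library, M0 ranges overlapped, and the difference was 3.48 ± 0.38 (edgeR adjusted p = 0.000144). The receptor Gpr160 had 0.868, 1.27 and 1.89 CPM in M1 NS against 9.99 and 15.3 in M1 KD, and a difference of 3.38 ± 0.38. Aph1c, a subunit of gamma-secretase, had M0 NS values of 60.6, 58.0 and 52.0 CPM, M0 KD values of 65.2, 59.3 and 60.1, M1 NS values of 3.73, 3.44 and 5.82 and M1 KD values of 59.1 and 36.6. One M1 KD library reached the range of the M0 libraries and the other stayed below it, and the difference was 3.34 ± 0.30.

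Fabp5, a cytosolic fatty acid binding protein, had M0 NS values of 744, 665 and 712 CPM, M0 KD values of 699, 654 and 449.9, M1 NS values of 47.5, 54.5 and 84.9 and M1 KD values of 607 and 346. The pattern was again low in M1 NS, with M1 KD between the M1 NS and the M0 NS values, and the difference was 3.17 ± 0.39 (edgeR adjusted p = 0.000255). Cish, a feedback inhibitor of cytokine signalling, was instead higher in M1 than in M0 and rose further with knockdown. It had M0 NS values of 1.19, 1.12 and 1.14 CPM, M0 KD values of 0.488, 0.458 and 1.2, M1 NS values of 12.7, 14.9 and 12.9 and M1 KD values of 71.2 and 98.0, and its difference was 3.30 ± 0.40. Gdf15, a stress-induced secreted factor, had 16.4, 25.2 and 19.6 CPM in M1 NS and 266 and 88.6 in M1 KD, with the M1 KD libraries far apart. Without M1 KD replicate 5 its difference changed from 3.27 to 2.27, with 1 library left whose spread is taken from the other groups. H2-K2, a class I antigen gene annotated as a transcribed pseudogene, had 10.3, 13.5 and 10.3 CPM in M1 NS, 84.3 and 62.7 in M1 KD and a difference of 3.38 ± 0.27, and its reads cannot be separated with certainty from those of related class I genes.

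**Figure D2:**
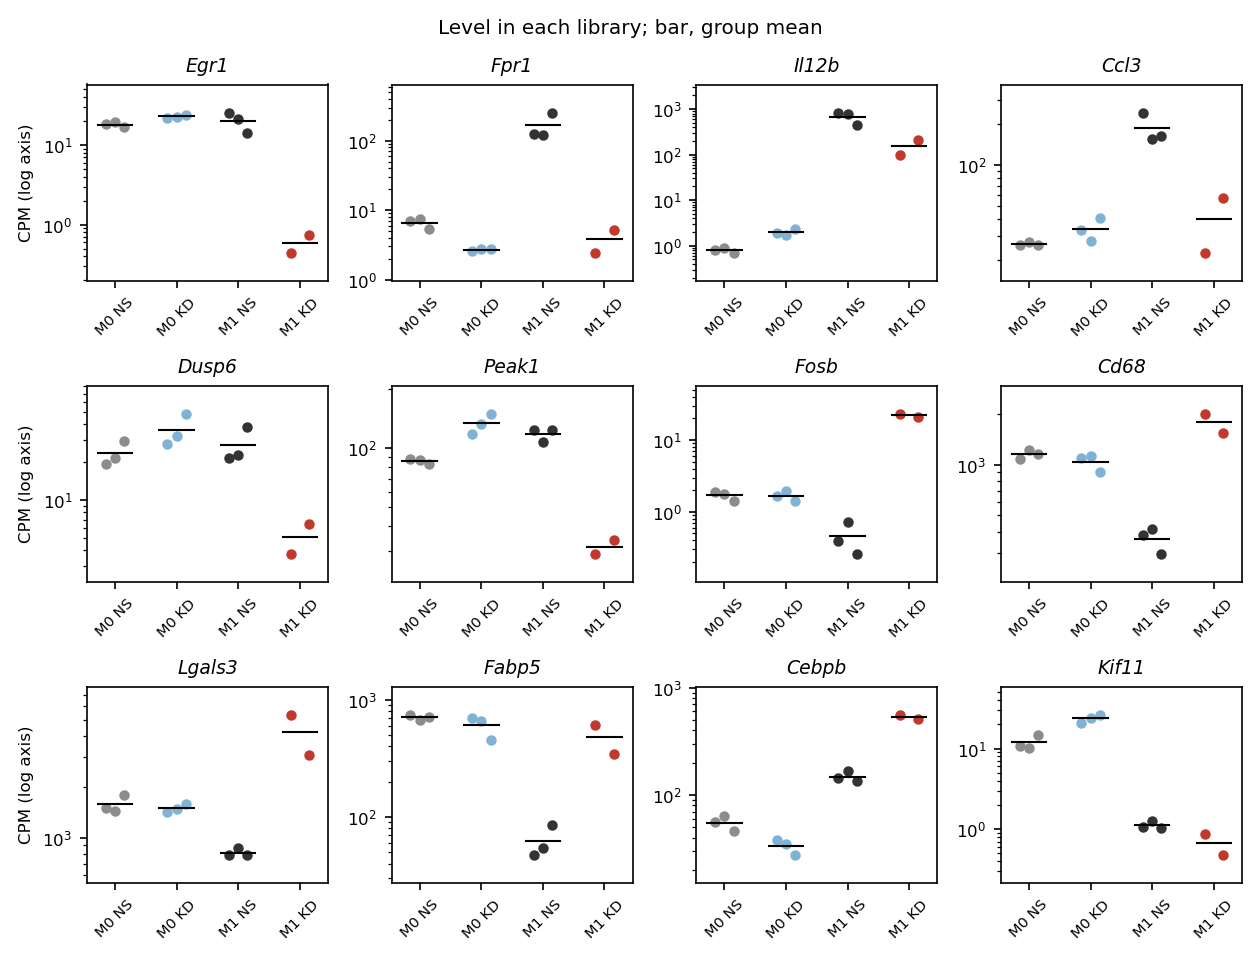
CPM on a log axis in each library for 12 genes with a called difference, by group (M0 NS grey, M0 KD light blue, M1 NS dark grey, M1 KD red); points are libraries and bars are group means. M1 KD lies below M1 NS for Egr1, Fpr1, Il12b, Ccl3, Dusp6, Peak1 and Kif11, and above it for Fosb, Cd68, Lgals3, Fabp5 and Cebpb.

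At the same minimum level, the 4 negative differences with the smallest p were those of Egr1, Pik3cg, Tmppe and Peak1. Pik3cg, the catalytic subunit of the G protein-coupled phosphoinositide 3-kinase of leukocytes, had M0 NS values of 71.6, 72.3 and 66.0 CPM, M0 KD values of 73.7, 71.7 and 81.3, M1 NS values of 47.4, 47.0 and 60.2 and M1 KD values of 7.13 and 7.46. The M1 KD libraries were about as alike as those of any group and lay far below the rest, and the difference was -2.93 ± 0.19 (edgeR adjusted p = 2.12e-05). Peak1, a pseudokinase scaffold of the cytoskeleton, had M0 NS values of 88.5, 87.2 and 83.4 CPM, M0 KD values of 119, 134 and 150.4, M1 NS values of 123, 108 and 124 and M1 KD values of 28.8 and 33.9. It was higher with KD in every M0 library and lower in every M1 library, with effects of 0.64 and -1.92 and a difference of -2.55 ± 0.19. Tmppe, a gene for a predicted phosphoesterase, had a difference of -2.78 ± 0.20.

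In the positive direction the 4 with the smallest p were Slc41a1, Bbc3, Sulf2 and H2-K2. The magnesium transporter Slc41a1 had M0 NS values of 15.6, 14.9 and 13.8 CPM, M0 KD values of 13.2, 11.6 and 11.6, M1 NS values of 10.4, 12.04 and 12.3 and M1 KD values of 55.5 and 47.8, and its difference was 2.45 ± 0.18 (edgeR adjusted p = 3.46e-05). Bbc3, which encodes the apoptosis inducer Puma, had M0 NS values of 26.8, 27.5 and 29.2 CPM, M0 KD values of 16.7, 20.8 and 20.9, M1 NS values of 18.4, 22.6 and 19.0 and M1 KD values of 73.3 and 69.2. Bbc3 was lower with KD in all M0 libraries and higher in both M1 libraries, with a difference of 2.35 ± 0.19 that became 1.52 after a correction for transcript features, in which a smooth trend over exonic length, GC percentage and the number of exons was taken out of each library. Sulf2, a sulfatase of heparan sulfate, had M0 NS values of 174, 151 and 148 CPM, M0 KD values of 113, 125 and 117, M1 NS values of 3.28, 3.48 and 3.7 and M1 KD values of 10.6 and 11.5, with a difference of 2.07 ± 0.17. Its level in M1 KD, although above M1 NS, stayed far below that of M0.

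Some called genes had effects of opposite sign that were large in both states. By the smaller of the 2 effects, Il12b was joined by Ccl2 and Ccl7, chemokines for monocytes, and Ak4, a mitochondrial adenylate kinase. Ccl2 had M0 NS values of 9.59, 8.23 and 15.9 CPM, M0 KD values of 13.6, 14.3 and 61.7, M1 NS values of 156, 132 and 277 and M1 KD values of 80.4 and 55.3, and its effects were -1.47 in M1 and 1.41 in M0. Ccl7 had M0 NS values of 4.49, 3.66 and 4.81 CPM, M0 KD values of 5.91, 5.26 and 23.1, M1 NS values of 55.1, 38.0 and 66.1 and M1 KD values of 26.2 and 14.7, and its effects were -1.38 and 1.41. Ak4 had M0 NS values of 1.26, 1.34 and 1.78 CPM, M0 KD values of 1.29, 1.54 and 8.1, M1 NS values of 51.2, 50.6 and 66.8 and M1 KD values of 19.1 and 25.6, and its effects were -1.33 and 1.34. In all 3, M0 KD replicate 4 lay above the other M0 libraries, and no single effect was called. Without that library the differences changed from -2.88 to -1.78 for Ccl2, from -2.78 to -1.75 for Ccl7 and from -2.67 to -1.29 for Ak4, and all 3 stayed called. The call of Ccl2 was lost without M0 NS replicate 1 or 2, M1 NS replicate 4, or either M1 KD library (highest edgeR adjusted p = 0.108), that of Ak4 without any 1 of the M0 NS libraries, M1 NS replicate 4, or either M1 KD library (highest 0.115), and that of Ccl7 without M1 KD replicate 6 (0.0777).

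For 400 called genes (9.77% of the 4095) the M1 effect alone was not called. At the same minimum level, the 3 with the smallest p were Kif11, Smc2 and Usf2. The mitotic motor Kif11 had M0 NS values of 10.8, 10.3 and 14.8 CPM, M0 KD values of 21.0, 24.1 and 26.5, M1 NS values of 1.06, 1.27 and 1.03 and M1 KD values of 0.878 and 0.475. M0 KD was higher than M0 NS in every library while the low M1 values were lower with KD, the M0 effect was 0.99, and the difference was -1.68 ± 0.35 (edgeR adjusted p = 0.00505, and 0.0513 after correction for transcript features). Smc2, a condensin subunit, had M0 NS values of 25.002, 26.1 and 26.4 CPM, M0 KD values of 41.7, 45.4 and 49.0, M1 NS values of 12.5, 8.71 and 12.8 and M1 KD values of 9.66 and 9.84, with overlapping M1 ranges and a difference of -1.03 ± 0.22 that became -0.48 after that correction. Usf2, a factor that binds E-boxes, had M0 NS values of 89.7, 87.0 and 102 CPM, M0 KD values of 60.6, 68.3 and 65.4, M1 NS values of 59.8, 72.8 and 56.4 and M1 KD values of 81.2 and 78.3, with a difference of 0.86 ± 0.18. After the same correction Usf2 had a difference of 0.26 and was no longer called (edgeR adjusted p = 0.110).

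Gene lists were compared with the share of all genes tested, 13.1% positive and 14.2% negative. Among 23 tested CC and CXC chemokine ligands, 4 had a negative difference (Ccl3, Ccl4, Ccl2 and Ccl7) and 4 a positive one (Cxcl16, Pf4, Ccl6 and Ccl8), with a median of 0.04. Ccl3 (chromosome 11, 83647844 to 83649355) had M0 NS values of 25.5, 27.1 and 25.8 CPM, M0 KD values of 33.1, 27.6 and 40.6, M1 NS values of 244, 156 and 164 and M1 KD values of 22.4 and 57.2. Its level fell in M1, where the libraries did not overlap, and M0 KD was slightly above M0 NS in each library. The effects were -2.24 in M1 and 0.37 in M0, for a difference of -2.61 ± 0.44 (edgeR adjusted p = 0.00151). Ccl4 (chromosome 11, 83662584 to 83664683) had M0 NS values of 12.1, 13.3 and 12.6 CPM, M0 KD values of 14.96, 15.7 and 19.3, M1 NS values of 139, 117 and 56.1 and M1 KD values of 6.75 and 24.9. Ccl4 also fell in M1 without overlap and was slightly above M0 NS in each M0 KD library, with effects of -2.72 and 0.39 and a difference of -3.12 ± 0.61 (edgeR adjusted p = 0.00344). For both chemokines the M1 KD libraries differed from each other by over 2-fold, and leaving out replicate 6 or replicate 5 gave differences of -3.44 or -2.09 for Ccl3 and -4.34 or -2.46 for Ccl4. Without M1 KD replicate 6 the list held 2 negative calls.

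Cxcl16, which is also a scavenger receptor in its membrane form, had M0 NS values of 179, 196 and 150.2 CPM, M0 KD values of 106, 112 and 122, M1 NS values of 828, 869 and 815 and M1 KD values of 1464 and 1391. It was lower with KD in each M0 library and higher in both M1 libraries, and the difference was 1.40 ± 0.20 (edgeR adjusted p = 0.000673), with 18.3% of its exonic bases shared with the opposite-strand gene Zmynd15. Pf4 had 41.3, 44.5 and 19.0 CPM in M1 NS and 131 and 102 in M1 KD, with a difference of 2.07 ± 0.41. Ccl6 had a difference of 1.78 ± 0.39 and Ccl8 one of 2.80 ± 0.83. The interferon-induced chemokines Cxcl9 and Cxcl10 were not called, with differences of 0.60 ± 0.39 and 0.72 ± 0.65, and neither was Ccl5 with 0.46 ± 0.52.

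Receptors for chemoattractants had 7 negative and 2 positive calls among 22 tested, and a median difference of -0.92. Besides Fpr1, the negative ones included Fpr2, the complement receptors C5ar1, C5ar2 and C3ar1, and the chemokine receptor Ccr2. C5ar1 had M0 NS values of 303, 322 and 313 CPM, M0 KD values of 284, 312 and 331, M1 NS values of 33.7, 37.8 and 51.6 and M1 KD values of 6.42 and 8.16. Its M0 libraries overlapped, M1 NS lay below them and M1 KD below M1 NS, and the difference was -2.48 ± 0.25 (edgeR adjusted p = 0.000114). Ccr2, the receptor of Ccl2, had M0 NS values of 53.7, 65.4 and 53.2 CPM, M0 KD values of 45.1, 54.2 and 63.4, M1 NS values of 6.78, 5.34 and 7.91 and M1 KD values of 1.23 and 1.68, with a difference of -2.13 ± 0.29. For C5ar1 and Ccr2 M0 levels were the higher ones, whereas Fpr1 and Fpr2 were highest in M1 NS. The positive calls were Cxcr4, the receptor of Cxcl12, with 2.13, 2.45 and 3.58 CPM in M1 NS and 13.2 and 10.3 in M1 KD, and Ccrl2, a receptor that presents chemerin, with 723, 734 and 433 and 1755 and 2816.

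Toll-like receptors detect microbial products and signal to cytokine genes. Of 22 Toll-like receptors and adaptors 6 had a negative difference and 0 a positive one, with a median of -0.52. They were Tlr8, Tlr4, Tlr13, Tlr6, the adaptor Tirap and the inhibitory kinase Irak3. Tlr4, the receptor of lipopolysaccharide, had M0 NS values of 77.5, 81.3 and 50.4 CPM, M0 KD values of 106, 92.1 and 90.3, M1 NS values of 31.2, 20.2 and 38.1 and M1 KD values of 8.26 and 9.33, with a difference of -2.23 ± 0.34. Its M1 KD libraries were the lowest, and the M0 KD libraries the highest. Among 20 inflammatory cytokines 4 were negative (Il12b, Il1a, Tnf and Tnfsf9) and 2 positive (Osm and Il15). Tnf, the tumour necrosis factor, had M0 NS values of 19.5, 19.96 and 17.5 CPM, M0 KD values of 18.6, 13.5 and 20.1, M1 NS values of 659, 727 and 553 and M1 KD values of 324 and 180.1, and a difference of -1.23 ± 0.33 (edgeR adjusted p = 0.0157). Il1a had 258, 219 and 359 CPM in M1 NS and 71.6 and 106 in M1 KD, with a difference of -1.74 ± 0.34. The cytokine median was -1.19, and without M0 KD replicate 4 it was -0.64. One of the 2 positive calls was lost without M0 NS replicate 1 or 2, M1 NS replicate 2 or 4, M0 KD replicate 1 or 2, or M1 KD replicate 6. Classical activation markers had 6 negative and 0 positive calls among 21, namely Marco, Fpr2, Slc7a2, Ptgs2, Cd80 and Upp1. Nos2, the inducible nitric oxide synthase, was not called, with a difference of -0.08 ± 0.31.

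Immediate early transcription factors, which respond within minutes to kinase signalling, had 7 positive and 7 negative calls among 24 tested. The negative ones were Egr1, Egr2, Egr3, Fosl1, Klf2, Nr4a1 and Ier2, and the positive ones Fosb, Fos, Jun, Junb, Klf4, Nr4a2 and Nr4a3. Fosb (chromosome 7, 19302696 to 19310051), a subunit of the AP-1 factor, had M0 NS values of 1.91, 1.79 and 1.4 CPM, M0 KD values of 1.67, 1.95 and 1.43, M1 NS values of 0.392, 0.713 and 0.258 and M1 KD values of 23.4 and 21.1. M1 KD exceeded every other library by over 10-fold, and the difference was 5.67 ± 0.41 (edgeR adjusted p = 3.46e-05). Fosl1, another AP-1 subunit, moved the other way with M0 NS values of 0.466, 0.427 and 0.5 CPM, M0 KD values of 0.488, 0.482 and 0.539, M1 NS values of 6.81, 7.17 and 5.5 and M1 KD values of 0.22 and 0.183, with a difference of -5.09 ± 0.41. Its M1 KD libraries lay below the low M0 values. Fos had M0 NS values of 81.1, 79.0 and 88.9 CPM, M0 KD values of 97.0, 108 and 127, M1 NS values of 92.1, 78.1 and 87.0 and M1 KD values of 247 and 309, with a difference of 1.28 ± 0.21. Junb had 638, 781 and 468 CPM in M1 NS and 1681 and 1713 in M1 KD, for a difference of 1.82 ± 0.27. The median of the list was 0.28 and changed to -0.05 with a trend in length and GC content removed, so no direction is given for the list as a whole.

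Genes induced by ERK that feed back on the MAP kinase pathway had 8 negative and 2 positive calls among 18 tested, and a median difference of -1.04. The negative ones were the factor Etv5, the phosphatases Dusp6 and Dusp16, the inhibitors Spred1, Spred2 and Spry2, the pseudokinase Trib1, and Phlda1. Dusp6, the phosphatase of ERK, had M0 NS values of 19.2, 21.7 and 29.6 CPM, M0 KD values of 27.996, 32.1 and 48.6, M1 NS values of 21.6, 22.6 and 38.0 and M1 KD values of 3.73 and 6.44. The difference was -3.07 ± 0.45 (edgeR adjusted p = 0.000662), with effects of -2.44 in M1 and 0.63 in M0. Etv5 had M0 NS values of 23.5, 22.1 and 41.3 CPM, M0 KD values of 40.8, 48.1 and 48.7, M1 NS values of 21.6, 23.6 and 19.5 and M1 KD values of 5.13 and 3.4, with a difference of -2.99 ± 0.36. Spred2 had M0 NS values of 6.98, 7.64 and 9.14 CPM, M0 KD values of 10.3, 12.4 and 14.6, M1 NS values of 25.6, 27.99 and 31.7 and M1 KD values of 11.2 and 6.11, with a difference of -2.36 ± 0.33. For Dusp6 and Etv5 the M1 KD libraries were the lowest of all, whereas for Spred2 one lay within the range of the M0 libraries and the other below it. The 2 positive genes were Trib3, which the integrated stress response also induces, with 1.63 ± 0.31, and Dusp8 with 1.65 ± 0.43, and 1 positive call remained without M1 KD replicate 5.

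Most lysosomal genes had a positive difference. Of 40 tested genes for lysosomal enzymes and membrane proteins, 28 had a positive difference and 0 a negative one, with median effects of 0.82 in M1 and -0.12 in M0 and a median difference of 1.001. Several of these genes are known to be controlled by TFEB and its relatives, factors that bind the palindrome TCACGTGA. RefSeq promoter windows (250 bases before to 50 after the start, GRCm38.p6) were available for 32 of the 40 genes, in 35 windows, and 4 windows held this 8-mer on either strand, or 11.4%. All 4 belong to genes with a positive call, as do 28 of the 40 genes of the list. The share was 0.974% of all 32851 RefSeq promoter windows, 1.71% of those of genes tested, 1.96% of those with a positive and 2.29% of those with a negative call. The stretches around the matches are shown because these members carry the 8-mer. Whether TFEB has a part in their differences was not tested. Each is written 5′ to 3′ on the strand of the gene with up to 40 bases of the promoter on each side of the match and the match in capitals, for Ctsa at chr2:164833720-164833772 (plus strand), Ctsd at chr7:142387879-142387966 (minus strand), Gla at chrX:134601153-134601255 (minus strand) and Mcoln1 at chr8:3500433-3500518 (plus strand).
Ctsa: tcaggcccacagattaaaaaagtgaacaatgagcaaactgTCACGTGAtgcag
Ctsd: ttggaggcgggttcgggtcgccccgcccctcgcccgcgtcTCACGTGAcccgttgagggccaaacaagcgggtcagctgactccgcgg
Gla: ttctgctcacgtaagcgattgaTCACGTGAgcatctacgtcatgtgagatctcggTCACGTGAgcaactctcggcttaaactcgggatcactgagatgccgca
Mcoln1: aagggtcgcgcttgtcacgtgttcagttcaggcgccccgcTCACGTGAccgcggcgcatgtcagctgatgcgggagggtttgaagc
The 8-mer began 13 bases before the start in Ctsa, 99 in Ctsd and 46 in Mcoln1, and at 2 places, 228 and 195 bases before it, in Gla.

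All 4 genes behind these sequences rose with knockdown in M1. The cathepsin Ctsa had M0 NS values of 1244, 1299 and 1320.3 CPM, M0 KD values of 1171, 1239.9 and 946, M1 NS values of 550.4, 654 and 430.4 and M1 KD values of 1549.7 and 1263, with a difference of 1.57 ± 0.27. The protease Ctsd had M0 NS values of 7773, 7959 and 9389.8 CPM, M0 KD values of 8861, 9346 and 6792, M1 NS values of 1507, 1649.8 and 1984 and M1 KD values of 6366 and 4080.0, with a difference of 1.61 ± 0.31. Gla, the alpha-galactosidase, had 382, 312 and 333 CPM in M1 NS and 745 and 959.5 in M1 KD, and the calcium channel Mcoln1 had 61.1, 62.8 and 43.8 and 114 and 128. These 4 come from a list in which 28 of 40 genes were called positive, so their rise in M1 is not separate support. The 7-mer TGACTCA, the site of AP-1, was present on either strand in 6 of the 35 lysosomal windows, or 17.1%, against 5.20% of all windows and 3.98% of those of genes tested. Among windows of all called genes it was present in 4.07% of those with a positive and 3.20% of those with a negative call. The window of Cd68 held it at 2 places, 149 and 24 bases before the start, and is shown from chr11:69666171-69666359 (minus strand) with the matches in capitals, where both read TGAGTCA, the motif on its other strand, since Cd68 had the smallest p of the list.
Cd68: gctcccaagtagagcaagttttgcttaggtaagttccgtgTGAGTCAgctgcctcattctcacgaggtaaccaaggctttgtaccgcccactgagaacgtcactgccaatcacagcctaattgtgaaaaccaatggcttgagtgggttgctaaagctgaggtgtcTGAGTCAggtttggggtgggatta
A match is a description of the letters and not evidence of binding.

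Cd68, a lysosomal membrane glycoprotein of macrophages, had M0 NS values of 1079, 1221 and 1163 CPM, M0 KD values of 1095, 1135 and 903, M1 NS values of 379.6, 413 and 294 and M1 KD values of 2019 and 1557. M1 NS lay below all M0 libraries and M1 KD above them, and the difference was 2.45 ± 0.26 (edgeR adjusted p = 0.000119). Hexa, a subunit of hexosaminidase, had M0 NS values of 1213, 1259.7 and 1167 CPM, M0 KD values of 1093, 1152 and 981, M1 NS values of 255, 279.7 and 257 and M1 KD values of 909 and 682. Its M1 KD libraries lay between M1 NS and M0, the difference was 1.77 ± 0.22, and 12.8% of its exonic bases are shared with the opposite-strand gene Tmem202. Gpnmb, a glycoprotein of lysosomes and melanosomes, had the largest difference of the list at 2.72 ± 0.39, with 2347, 2545 and 2311 CPM in M1 NS and 21752 and 10423 in M1 KD. Under a test against a 1.5-fold change (glmTreat) 10 of the 40 remained called.

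Autophagy genes and members of the TFEB family had 14 positive and 0 negative calls among 30 tested, with a median difference of 0.54. Ulk1, the kinase that starts autophagosome formation, had M0 NS values of 68.9, 71.9 and 68.7 CPM, M0 KD values of 55.7, 59.9 and 52.9, M1 NS values of 27.96, 31.0 and 28.8 and M1 KD values of 76.0 and 60.05, with a difference of 1.53 ± 0.17. The adaptor Optn had M0 NS values of 27.0, 29.5 and 22.7 CPM, M0 KD values of 25.4, 28.1 and 22.8, M1 NS values of 29.8, 29.3 and 21.0 and M1 KD values of 83.7 and 82.0, with a difference of 1.69 ± 0.23. The largest difference was that of Rragd, a GTPase of the amino acid sensing machinery on lysosomes, at 2.99 ± 0.42. Tfeb itself had M0 NS values of 66.1, 69.4 and 71.0 CPM, M0 KD values of 48.4, 50.3 and 45.4, M1 NS values of 18.7, 24.0 and 19.6 and M1 KD values of 38.8 and 25.6, with a difference of 1.16 ± 0.23, whereas its relatives Tfe3 (-0.13 ± 0.19) and Mitf (-0.36 ± 0.23) were not called. The proton pump that acidifies lysosomes had 8 positive and 0 negative calls among 18 subunit genes. Atp6v0d2, a subunit enriched in macrophages and osteoclasts, had M0 NS values of 222, 165 and 234 CPM, M0 KD values of 241, 219 and 356, M1 NS values of 13.2, 11.4 and 12.7 and M1 KD values of 159 and 97.2, with a difference of 2.97 ± 0.33 (edgeR adjusted p = 0.000162). The other 7 called subunits had smaller differences, from 0.52 for Atp6v1g1 to 1.27 for Atp6v1d. The 8-mer TCACGTGA was found in 3 of 16 windows (18.8%) of the 12 pump genes with a RefSeq promoter, those of Atp6v0d1 and Atp6v0e, which were called, and Atp6v1a, which was not. Of the 32 windows of the 26 matched genes in the list of the TFEB family and autophagy, 1 held it (3.13%), that of Atg3, which was not called.

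Lipid uptake and lipid-associated macrophage genes had 12 positive and 4 negative calls among 25 tested, with a median difference of 0.78. Lgals3, a galectin of lipid-laden macrophages, had M0 NS values of 1493, 1445 and 1798 CPM, M0 KD values of 1416, 1475 and 1573, M1 NS values of 787, 864 and 792 and M1 KD values of 5367 and 3079.9. Its M1 KD libraries were the highest of all, and the difference was 2.46 ± 0.29 (edgeR adjusted p = 0.000226). Trem2, a lipid-sensing receptor of such cells, had M0 NS values of 891, 945 and 1152 CPM, M0 KD values of 956, 1027 and 757, M1 NS values of 78.8, 106 and 47.9 and M1 KD values of 821 and 399.9, with a difference of 3.10 ± 0.44. Its M1 KD libraries lay below all of M0 NS and above all of M1 NS. Spp1, the secreted protein osteopontin, had 205, 239 and 234 CPM in M1 NS, 1657 and 977 in M1 KD and a difference of 1.77 ± 0.43. The lipoprotein lipase Lpl rose in M1 and had an M0 effect of 0.88, with a difference of 1.06 ± 0.29. The 4 negative genes were Lrp1, Apobr, Acsl1 and Msr1, of which Lrp1, a large endocytic receptor, had 437, 504 and 818 CPM in M1 NS and 211 and 92.7 in M1 KD. The negative count was 2 without M1 KD replicate 6.

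Scavenger receptors were split, with 5 positive (Cd68, Cd5l, Stab2, Cxcl16 and Scarb1) and 4 negative calls (Marco, Lrp1, Stab1 and Msr1) among 14 tested. Negative calls numbered 2 without M0 NS replicate 2 or 4, M1 NS replicate 4 or M0 KD replicate 4, and positive ones 3 without M1 KD replicate 5. Marco, which binds bacteria and particles, had M0 NS values of 76.2, 64.4 and 34.9 CPM, M0 KD values of 21.6, 21.8 and 38.0, M1 NS values of 1922, 2164 and 2747 and M1 KD values of 77.1 and 355. It was lower with KD in M1 without overlap, its M0 effect was -1.11, and the difference was -2.29 ± 0.70 (edgeR adjusted p = 0.0301). Cholesterol efflux genes and LXR targets had 7 positive and 1 negative call among 19. The transporter Abcg1 had M0 NS values of 275, 303 and 269 CPM, M0 KD values of 242, 249 and 222, M1 NS values of 248, 252 and 142 and M1 KD values of 369.5 and 523, with a difference of 1.31 ± 0.31, while the related transporter Abca1 had 375, 354 and 700.2 CPM in M1 NS, 156 and 234 in M1 KD and a difference of -1.21 ± 0.39. Npc2, which carries cholesterol out of the lysosome, had a difference of 1.02 ± 0.23. Among 24 cholesterol synthesis genes 7 were positive and 3 negative (Stard4, Idi1 and Hsd17b7). The decarboxylase Mvd had M0 NS values of 13.9, 13.5 and 12.8 CPM, M0 KD values of 8.87, 9.14 and 9.78, M1 NS values of 10.8, 13.9 and 15.6 and M1 KD values of 36.5 and 29.5, with a difference of 1.83 ± 0.22 that became 1.09 after correction for transcript features. The reductase Dhcr7 had a difference of 0.97 ± 0.20. The count of positive LXR targets was 4 without M0 KD replicate 1 and 0 under glmTreat against a 1.5-fold change. The call of Abca1 was lost without any 1 of the 6 M0 libraries or M1 NS replicate 4, and the median of cholesterol synthesis genes changed from 0.16 to -0.05 without M1 KD replicate 5.

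**Figure D3:**
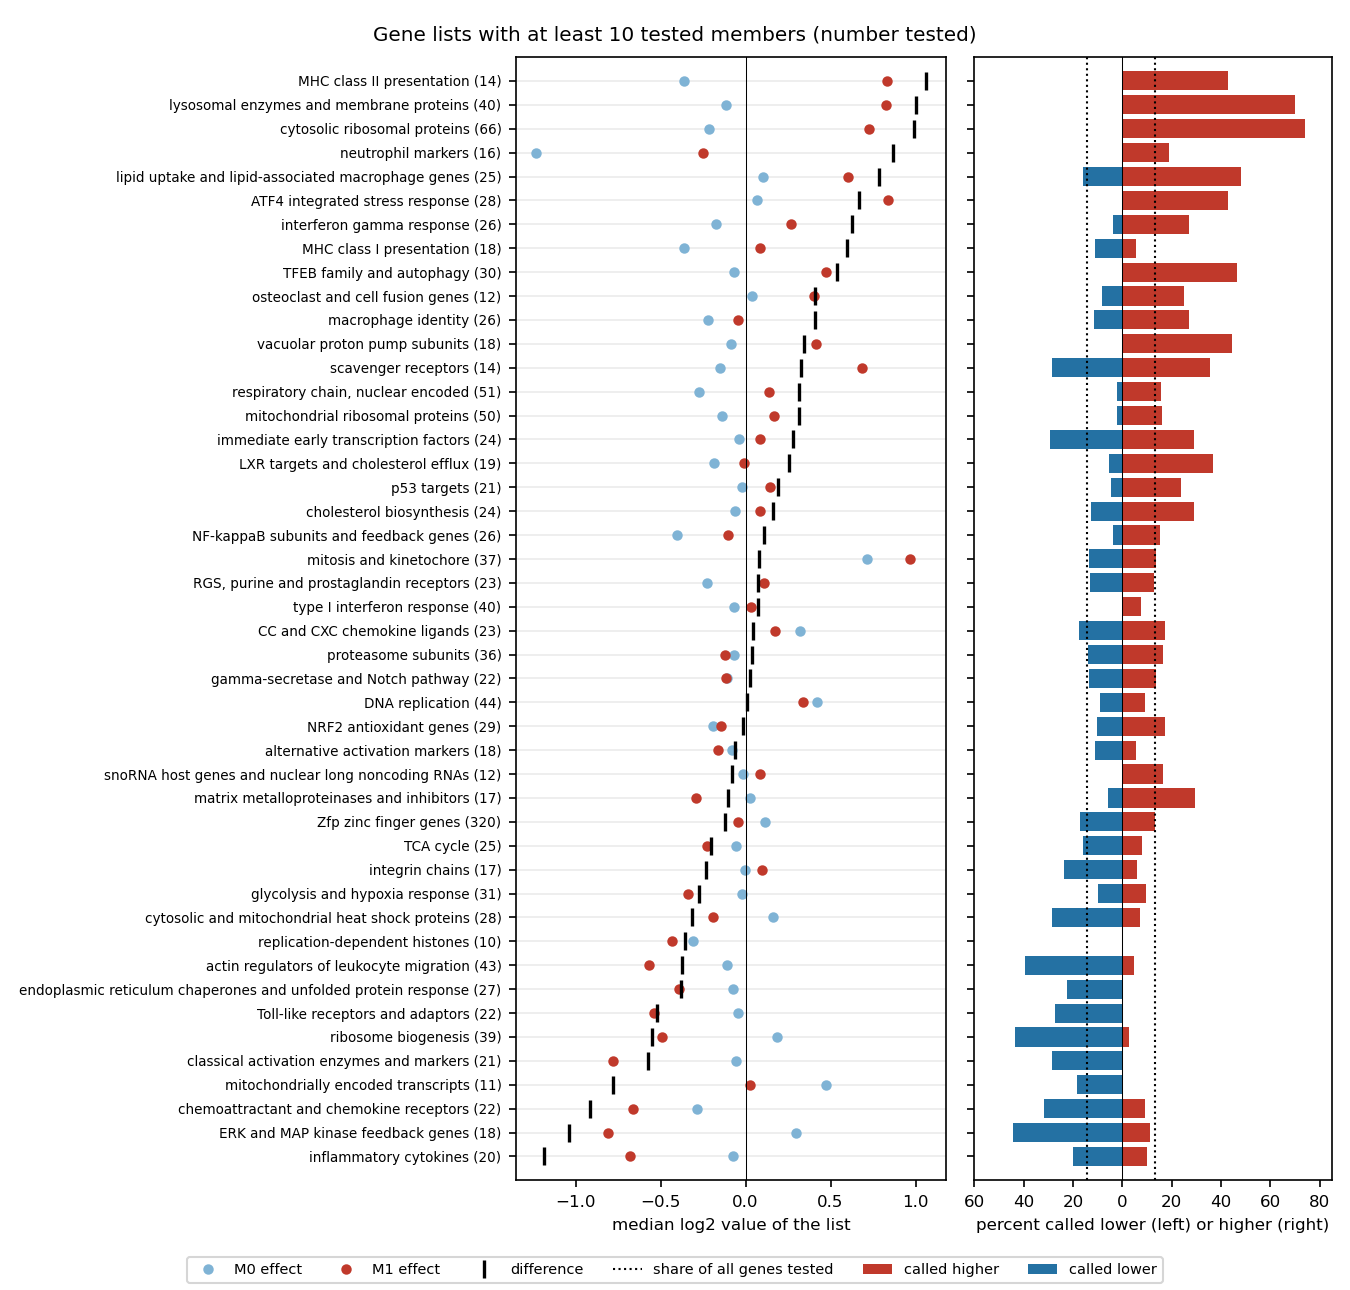
Gene lists with at least 10 tested members; left, the median log2 knockdown effect in M0 (light blue), in M1 (red) and the median difference (black bar); right, the percent of tested members called with a positive (red, to the right) or negative difference (blue, to the left), with dotted lines at the shares of all genes tested. Ribosomal protein and lysosomal genes have the longest red bars, and ERK feedback and ribosome biogenesis genes the longest blue ones.

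Genes of the translation machinery moved apart. All 66 cytosolic ribosomal protein genes had a difference above 0, and 49 were called positive against 0 negative, with median effects of 0.73 in M1 and -0.21 in M0. Rps24, a protein of the small subunit, had M0 NS values of 225, 239 and 269 CPM, M0 KD values of 224, 226 and 239.9, M1 NS values of 490.1, 474 and 418 and M1 KD values of 877 and 950.2, with a difference of 1.07 ± 0.19 (edgeR adjusted p = 0.00213). Rpl17, of the large subunit, had 209, 212 and 211 CPM in M1 NS, 535 and 375 in M1 KD and a difference of 1.16 ± 0.21. The count was 14 without M1 KD replicate 5 and 32 without M0 KD replicate 1, 31 after correction for transcript features, and 9 under glmTreat against a 1.5-fold change. Relative to all genes, ribosomal protein genes were higher by 0.76 in M1 KD replicate 5 and 0.33 in replicate 6, against -0.33 to 0.26 in the other 9 libraries, on the log2 scale. Ribosomal protein genes have many processed pseudogenes, so their counts are uncertain.

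Ribosome biogenesis factors, which assemble the subunits in the nucleolus, had 17 negative and 1 positive call (Polr1c) among 39 tested, with a median difference of -0.55. Utp20, of the small subunit processome, had M0 NS values of 27.6, 25.2 and 26.1 CPM, M0 KD values of 31.1, 32.8 and 36.6, M1 NS values of 29.8, 29.8 and 33.6 and M1 KD values of 9.17 and 8.63. It was higher with KD in each M0 library and lower in both M1 libraries, and the difference was -2.15 ± 0.17 (edgeR adjusted p = 3.67e-05). Ddx21, a nucleolar helicase, had M0 NS values of 69.3, 70.5 and 67.7 CPM, M0 KD values of 81.9, 89.8 and 91.2, M1 NS values of 110.4, 106 and 117 and M1 KD values of 57.9 and 62.5, with a difference of -1.23 ± 0.15. The count of negative calls was 11 without M0 NS replicate 1, without M1 NS replicate 1 and without any 1 of the 3 M0 KD libraries, and also 11 with upper-quartile factors.

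Targets of ATF4, the factor of the integrated stress response, had 12 positive and 0 negative calls among 28 (1 negative without M1 NS replicate 4), with a median difference of 0.66. Cebpb, a partner of ATF4 and a factor of myeloid cells, had M0 NS values of 56.4, 63.7 and 45.8 CPM, M0 KD values of 37.8, 35.2 and 27.6, M1 NS values of 145, 166 and 135 and M1 KD values of 561 and 512. It was lower with KD in all M0 libraries and higher in both M1 libraries, the difference was 2.58 ± 0.24 (edgeR adjusted p = 6.62e-05), and 20.7% of its exonic bases are shared with the opposite-strand gene Tmem189. Ddit3, which encodes the factor CHOP, had M0 NS values of 30.1, 45.1 and 28.3 CPM, M0 KD values of 36.9, 32.7 and 26.0, M1 NS values of 82.0, 97.6 and 66.5 and M1 KD values of 475 and 313, with a difference of 2.38 ± 0.33. The 8-mer TGATGCAA, an ATF4 site, was present on either strand in 5 of 28 windows of the list (17.9%), against 0.895% of all windows. These 5 belong to Aars, Chac1, Nupr1, Slc7a11 and Vldlr, none of which was called. Chaperones of the endoplasmic reticulum had 6 negative and 0 positive calls among 27 (Hyou1, Canx, Hsp90b1, Calr, Sel1l and Pdia6). This negative share of 22.2% lies above the 14.2% of all genes called negative and below the 27.3% called in either direction. The median difference of the list was -0.38. Cytosolic and mitochondrial heat shock proteins had 8 negative and 2 positive calls (Hspa8 and Dnajb1) among 28.

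Antigen presentation by MHC class II had 6 positive and 0 negative calls among 14. H2-DMb1, part of the peptide exchanger of class II, had M0 NS values of 36.5, 37.1 and 35.8 CPM, M0 KD values of 27.6, 26.6 and 33.8, M1 NS values of 110.4, 116 and 103 and M1 KD values of 187 and 205. It was lower with KD in all M0 libraries and higher in both M1 libraries, with a difference of 1.15 ± 0.17 that became 0.63 after correction for transcript features. Rfxap, a factor that binds class II promoters, had M0 NS values of 15.5, 14.8 and 16.8 CPM, M0 KD values of 14.3, 14.9 and 13.2, M1 NS values of 9.38, 12.2 and 10.3 and M1 KD values of 18.9 and 18.6, with a difference of 0.97 ± 0.19. Without M0 KD replicate 4 the count of positive calls was 11. Interferon gamma response genes had 7 positive calls and 1 negative call among 26. The factor Irf1 had 1343, 1599.6 and 1118 CPM in M1 NS and 4485 and 3440.1 in M1 KD with a difference of 1.94 ± 0.27, and the guanylate-binding protein gene Gbp5, the negative one, had 236, 229.6 and 179 and 24.7 and 69.6. Type I interferon response genes had 3 positive calls (Isg20, Oasl1 and Bst2) and 0 negative ones among 40, below the share of all genes, and a median of 0.07.

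Regulators of the actin cytoskeleton in migrating leukocytes had 17 negative and 2 positive calls (Capg and Arpc3, 1 of them without M1 KD replicate 5) among 43, with a median difference of -0.38. Dock8, an activator of Cdc42, had M0 NS values of 267, 296 and 318 CPM, M0 KD values of 308, 339 and 295, M1 NS values of 100.3, 86.3 and 137 and M1 KD values of 28.1 and 34.6, with a difference of -1.88 ± 0.26. Wipf1, the partner of the WASP protein, had M0 NS values of 176, 182 and 159 CPM, M0 KD values of 203, 210.1 and 186, M1 NS values of 151, 129.7 and 139.7 and M1 KD values of 58.0 and 53.4, with a difference of -1.54 ± 0.18 (edgeR adjusted p = 0.000177). Coro1a, which organises actin in leukocytes, had 339, 439 and 244 CPM in M1 NS and 75.9 and 76.2 in M1 KD, with a difference of -1.78 ± 0.27. For these 3 genes both M1 KD libraries were the lowest of all 11. Of 17 integrin chains 4 were negative (Itga5, Itga9, Itgav and Itgal) and 1 positive (Itgb7). Itgb7 had 16.3, 20.9 and 28.5 CPM in M1 NS and 113 and 23.003 in M1 KD, so that 1 M1 KD library lay within the M1 NS range.

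Other lists held calls close to the share of all genes, or in both directions. Of 37 mitosis genes 5 were positive and 5 negative, with a median difference of 0.08 although their median effects were 0.97 in M1 and 0.72 in M0. DNA replication genes had 4 and 4 calls among 44, nuclear-encoded respiratory chain genes 8 positive and 1 negative among 51, proteasome subunits 6 and 5 among 36, and zinc finger genes named Zfp 43 and 55 among 320. For the respiratory chain the positive count was 20 without M1 NS replicate 2, 2 without M1 NS replicate 1, 1 without M1 KD replicate 5, and between 2 and 5 without any 1 of the M0 libraries. Among mitochondrially encoded transcripts 2 of 11 were negative (mt-Nd1 and mt-Nd2; 4 without M1 NS replicate 2, 5 without M1 KD replicate 6, 1 without any other single library), and the list median of -0.78 changed to 0.04 after correction for transcript features. The mitochondrial share of counts was 1.02 to 1.14% in M0 NS, 1.28 to 1.45% in M0 KD, 0.488 to 0.891% in M1 NS and 0.522 to 0.727% in M1 KD.

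Markers of other marrow cell types also differed between groups. The 16 neutrophil markers summed to 1503 to 2618 CPM in M0 NS, 848 to 910 in M0 KD, 269 to 346 in M1 NS and 233 to 239 in M1 KD. Their median effect was -1.23 in M0 and -0.25 in M1, and 3 of them (Prtn3, Mmp8 and Lcn2) had a positive difference. The 10 T and NK cell markers summed to 13.5 to 22.9 CPM in M0 NS, 9.69 to 20.2 in M0 KD, 2.35 to 6.17 in M1 NS and 15.9 to 17.3 in M1 KD, and Cd4 and Lck had a positive difference. Cd4 had M0 NS values of 20.2, 21.5 and 12.5 CPM, M0 KD values of 10.2, 8.17 and 19.3, M1 NS values of 1.43, 2.06 and 1.03 and M1 KD values of 6.61 and 6.77. Lck had 1.15, 2.14 and 0.889 CPM in M1 NS and 7.90 and 6.91 in M1 KD. Cd4 and Lck thus made up most of the M1 KD sum, to which the other T and NK cell markers added little. Klrb1c was at 0 in M1 NS. The 7 dendritic cell markers summed to at most 15.3 CPM in M0, 107 to 340.4 in M1 NS and 133 to 618 in M1 KD, and Flt3 had a positive difference. Flt3 itself had 0.924, 1.31 and 0.401 CPM in M1 NS and 2.47 and 3.51 in M1 KD, a small part of these sums. All of these lay below its M0 NS values of 5.17, 4.57 and 5.14 CPM. The defining markers of mast cells Mcpt4 and Tpsb2 were at 0 in all 4 groups, and the 7 markers of mast cells and basophils summed to at most 2.78 CPM. Over all libraries B and plasma cell markers summed to 5.10 to 18.7 CPM, erythroid and megakaryocyte markers to 27.7 to 319.8, and fibroblast and endothelial markers to 13.9 to 189. The erythroid and megakaryocyte list includes Pf4, described above as a chemokine. Pf4 was its only called member and made up most of its sum in M1 KD. The part of all these markers in the results was not tested.

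The called genes differed in transcript length and base composition. Genes with a positive difference had a median exonic length of 3354 bases and those with a negative difference 6008, against 4045 for all genes tested, and their median GC contents were 53.4, 46.3 and 49.7%. In the quintile of genes with the longest exons 6.31% were positive and 27.5% negative, and in the shortest quintile 14.4% and 6.34%. In the quintile with the highest GC content 23.5% were positive and 5.02% negative, and in the lowest quintile 4.55% and 24.4%. Of 1036 genes with 1 exon, 38 were positive and 154 negative. The same properties differed between libraries. The longest quintile was lower than the shortest by 0.37 and 0.44 (log2) in the M1 KD libraries and higher by 0.22 to 0.27 in M0 KD, with -0.16 to 0.14 in the 6 NS libraries. The highest GC quintile stood 0.28 to 0.34 above the lowest in M1 KD and 0.31 to 0.40 below it in M0 KD, while NS libraries ran from -0.47 to 0.52. After removing a smooth trend in length and GC content from each library 4039 genes were called, of which 3155 were among the 4095, and with exon number removed as well 3879 were called, with 2960 shared.

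**Figure D4:**
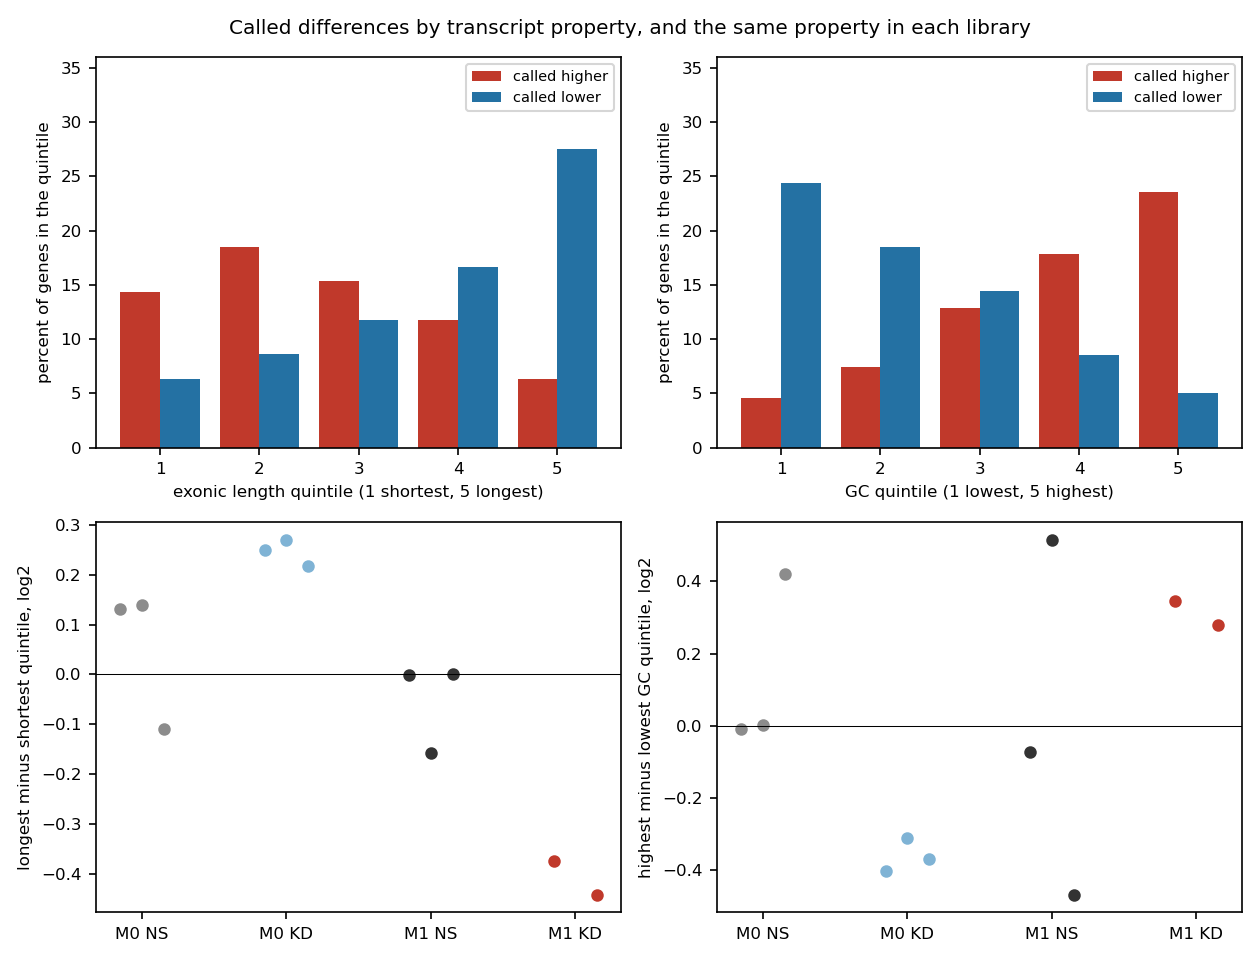
Top, percent of genes with a called positive (red) or negative (blue) difference in each quintile of exonic length and of GC content; bottom, for each library (points, by group) the median log2 level of the longest minus the shortest quintile and of the highest minus the lowest GC quintile, each relative to all libraries. Negative calls reach 27.5% in the longest quintile and positive calls 23.5% in the highest GC quintile, and M1 KD and M0 KD libraries lie on opposite sides of 0 in both lower panels.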

How the data were processed

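Gene counts of 11 libraries were deposited by the authors as raw counts per gene. STAR 2.5.2b, Trimmomatic 0.36 and Subread 1.5.2 (featureCounts) are named with the build GRCm38, per the submitters' processing notes. The annotation release, the strand setting and the library kit's strand marking were not stated in the labels or files used here. The authors also deposited a normalized signal per gene (22812 genes), which equals the count divided by 1 constant per library (checked on the files, with a largest relative gap of 0.000107 between the constants and median-ratio size factors), and served as an alternative only. The row with a blank name, at most 0.000305% of a library's counts, was left out.

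All 11 libraries were fitted by group with edgeR 4.0.16 (R 4.3.3; TMM factors, filterByExpr with a minimum count of 10 and minimum total of 15, robust quasi-likelihood fit) and the interaction (M1 KD - M1 NS) - (M0 KD - M0 NS) was tested with Benjamini-Hochberg adjustment over 15024 genes. The test was first run on simulated counts with known changes in M1 KD. They held no activation effect, no batch and no trend in length or GC content, so that run cannot speak to these. Limma 3.58.1, DESeq2 1.42.0 and other scalings, filters, left-out libraries and trend corrections (mgcv 1.9.3) were run as alternatives, 28 in all. Exon models and lengths came from GENCODE M21 on GRCm38, which matched 98.2% of genes tested, and promoter windows from RefSeq.

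The members, the 52 gene lists and the rules were chosen with earlier results of these data known. Of 1651 list entries 1642 matched a gene in the table. Named genes were, among called genes with an established symbol and a mean log2 CPM of at least 3, the 8 largest differences and the 4 smallest p of each direction, the 4 with the largest opposite effects, and the 3 with the smallest p whose M1 effect was not called. To these were added the 2 members with the smallest p of each of the 14 lists with the largest share called, and Ccl3 and Ccl4. Other list members with printed values were chosen after their values were seen.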

Additional observations from a re-analysis of the deposited data

Results flagged for a closer look

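The knockdown effect differed between M1 and M0, by the test of the difference itself (edgeR interaction, adjusted p under 0.05), for 4095 genes, and the named genes among them are given here by their log2 difference, M1 effect minus M0 effect. No group had enough libraries for a test of whether a single library is an outlier. Each library was instead left out in turn to see how far the results depend on it.

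Among the largest and best supported negative differences were Egr1 at -5.47, Fpr1 at -4.17, Rbm12 at -3.98, Psd3 at -3.61, Jag1 at -3.56, Il12b at -3.47, Kctd12 at -3.30, Atp7a at -3.22, Pik3cg at -2.93, Tmppe at -2.78 and Peak1 at -2.55. The positive ones were Frat2 at 3.80, Mgll at 3.48, Gpr160 at 3.38, H2-K2 at 3.38, Aph1c at 3.34, Cish at 3.30, Gdf15 at 3.27, Fabp5 at 3.17, Slc41a1 at 2.45, Bbc3 at 2.35 and Sulf2 at 2.07.

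Chemokine genes had differences of -2.61 (Ccl3), -3.12 (Ccl4), -2.88 (Ccl2), -2.78 (Ccl7) and 1.40 (Cxcl16). Ak4 stood at -2.67, Kif11 at -1.68, Smc2 at -1.03 and Usf2 at 0.86. Kinase-responsive genes stood at 5.67 (Fosb), -2.99 (Etv5) and -2.36 (Spred2).

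Lysosomal, autophagy and proton pump genes had differences of 2.45 (Cd68), 1.77 (Hexa), 1.53 (Ulk1), 1.69 (Optn), 2.97 (Atp6v0d2) and 1.27 (Atp6v1d). Lipid and cholesterol genes had 2.46 (Lgals3), 1.02 (Npc2), 1.31 (Abcg1), 1.83 (Mvd) and 0.97 (Dhcr7). Ribosomal protein and biogenesis genes had 1.07 (Rps24), 1.16 (Rpl17), -2.15 (Utp20) and -1.23 (Ddx21). The remaining genes had -1.54 (Wipf1), -1.88 (Dock8), 1.15 (H2-DMb1), 0.97 (Rfxap), 2.58 (Cebpb) and 2.38 (Ddit3).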

How the results depend on the processing

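The count of 4095 called differences ran from 3879 to 4563 over the other tools, scalings, filters and trend corrections, except under a test against a 1.5-fold change (glmTreat), where it was 1564 (712 positive, 852 negative), and at an adjusted p under 0.01, where it was 1956 (892 and 1064). The same settings changed the count for M1 KD against M1 NS to 2107 and 3258, and glmTreat moved that for M1 NS against M0 NS to 4971. M0 KD against M0 NS had 181 calls with DESeq2 and 385 without the filter on low counts, and 0 to 1 with 1 library left out. Leaving out 1 library gave 2949 (without M1 KD replicate 5) to 4751 called differences, and for M1 KD against M1 NS 3658 to 5796. With an M1 KD library left out, the lone one is assumed to vary like the other groups. Under glmTreat positive calls fell from 14 to 9 for the TFEB family and autophagy, 8 to 4 for pump subunits, 12 to 7 for ATF4 targets, 6 to 3 for MHC class II and 7 to 2 for cholesterol synthesis, and negative ones from 17 to 7 for ribosome biogenesis and 17 to 11 for actin regulators. No gene named by the rules above changed the sign of its difference in any alternative that tested it. Some list medians near 0 did change sign, those of immediate early, cholesterol synthesis, chemokine ligand and mitosis genes. That of mitochondrially encoded transcripts did so as well. Called differences were split nearly evenly with TMM factors (52.0% negative), RLE factors (51.0% positive) and DESeq2 (50.4% positive). With upper-quartile factors 59.2% were positive. Replicate numbers showed no clear pairing over all groups. Deviations of same-numbered libraries correlated between -0.11 and 0.14, and those of other numbers between -0.14 and 0.17. Between M0 NS and M0 KD alone, same-numbered libraries correlated at 0.14, 0.02 and 0.12, and those of other numbers between -0.13 and 0.03. So few libraries per group cannot settle whether these are paired. With the number as a random replicate block limma-voom called 3946 differences, against 4006 without it, and a fixed block over the 9 numbered M0 and M1 NS libraries gave 0 calls in M0. A fixed block cannot give the difference itself, because M1 KD shares no number with the other groups. Counts limit low genes most, such as Egr1 and Fosl1 in M1 KD, at under 1 CPM.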

Other observations

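In 6 other lists the share of genes called ran from 19.4% to 38.5%, against 27.3% of all genes tested. Among 26 macrophage identity genes 7 were positive and 3 negative (38.5% called), the latter including Sirpa and the transcription factor Maf. Maf, which restrains proliferation in mature macrophages, had M0 NS values of 598, 626 and 470.0 CPM, M0 KD values of 560.0, 550.5 and 529.8, M1 NS values of 357, 279 and 269 and M1 KD values of 32.8 and 75.2, with a difference of -2.44 ± 0.38 (edgeR adjusted p = 0.00104). Irf8, a factor of the monocyte lineage, had M0 NS values of 357, 369 and 312 CPM, M0 KD values of 294, 310.4 and 282, M1 NS values of 836, 1049 and 546 and M1 KD values of 3460.1 and 2626, with a difference of 2.14 ± 0.32. Of 17 matrix metalloproteinases and their inhibitors 5 were positive and 1 negative (35.3%), and of 21 p53 targets 5 were positive and 1 negative (28.6%). Among 22 genes of gamma-secretase and the Notch pathway 3 were positive (Psenen, Psen2 and Aph1c) and 3 negative (Jag1, Maml2 and Rbpj), which is the same share as over all genes, 27.3%.

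Of 29 NRF2 antioxidant genes 5 were positive, among them the ferritin chains Fth1 and Ftl1, and 3 were negative (27.6% called). Fth1 had M0 NS values of 9409.8, 9284 and 9049 CPM, M0 KD values of 7561, 6884 and 7819, M1 NS values of 22508, 25946 and 27291 and M1 KD values of 37739 and 36491, with a difference of 0.87 ± 0.23. Of 31 genes of glycolysis and the hypoxia response 3 were positive and 3 negative (19.4%). Hif1a, the oxygen-regulated factor, had 1257, 919 and 1266 CPM in M1 NS and 362 and 641 in M1 KD with a difference of -1.28 ± 0.38, and Vegfa, the vascular growth factor, had 280.2, 275 and 412 and 843 and 1079 with a difference of 1.63 ± 0.30.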
